A study of Homo sapiens with 9 samples.

Results

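The 7 genes DDC, GCH1, PTS, SPR, QDPR, MAOA and MAOB encode enzymes that make monoamines, supply the cofactor of that synthesis, or break monoamines down. They were taken by gene symbol from a table of read counts normalized for library size that holds 17518 genes in all, and all 7 were found there and passed the filter on low values. The set was chosen from the levels of these genes in these same libraries, so the levels and their differences between groups are given as a description, with no test. The cells were COR-L279, a long-kept culture line from a human small cell lung cancer (SCLC), assigned to SCLC-N, the subtype with high NEUROD1, a neurogenic transcription factor. Cells of genotype WT, grown in RPMI with 10% heat-inactivated serum, received for 24 h either DMSO, the vehicle, or JQ1 at 0.5 µM or at 1.5 µM. JQ1 is a small molecule that blocks the bromodomains of BET proteins, which read acetylated histones, and the comparisons ask how transcript levels of this line differ at each dose. Each of the 3 groups held 3 libraries of total RNA that the labels call biological replicates. The labels do not say whether these came from separate cultures, so p-values measure the spread between these libraries, which may be technical. All values come from 1 cell line, and the 9 libraries held between 60721187 and 88482001 reads in genes.

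Monoamines such as dopamine and serotonin are built from aromatic amino acids in successive steps. A hydroxylase (TH for tyrosine, TPH1 or TPH2 for tryptophan) acts first and needs the cofactor tetrahydrobiopterin (BH4), and the decarboxylase DDC then yields the amine. BH4 is made from GTP by GCH1, PTS and SPR in turn, and QDPR returns its spent form to use. MAOA and MAOB are flavin enzymes of the outer mitochondrial membrane that oxidize the amines, with different substrate preferences. DDC activity has long been followed as a biochemical trait of neuroendocrine lung cancer cells.

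The promoters of DDC, MAOA and MAOB are printed here because these 3 genes stood farthest below DMSO at 0.5 µM and at 1.5 µM. RefSeq (GRCh38.p14) listed promoters for 6 of the 7 genes, each with 250 bases before and 50 after the transcript start, read 5′ to 3′ along the transcript. DDC has a pair of listed starts, and the gene-level values below do not separate them. Capitals mark E-boxes (CANNTG, the site of basic helix-loop-helix factors) and Sp1 boxes (GGGCGG, or CCGCCC where the box lies on the other strand), searched on both strands.
DDC upstream start, chr7:50565356-50565655, minus strand: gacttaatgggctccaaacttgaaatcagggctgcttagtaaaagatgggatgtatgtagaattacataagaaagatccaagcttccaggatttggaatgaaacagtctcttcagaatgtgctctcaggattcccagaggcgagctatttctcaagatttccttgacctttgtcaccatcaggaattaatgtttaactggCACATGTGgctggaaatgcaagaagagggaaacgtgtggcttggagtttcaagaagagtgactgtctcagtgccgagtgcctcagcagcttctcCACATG
DDC downstream start, chr7:50561022-50561321, minus strand: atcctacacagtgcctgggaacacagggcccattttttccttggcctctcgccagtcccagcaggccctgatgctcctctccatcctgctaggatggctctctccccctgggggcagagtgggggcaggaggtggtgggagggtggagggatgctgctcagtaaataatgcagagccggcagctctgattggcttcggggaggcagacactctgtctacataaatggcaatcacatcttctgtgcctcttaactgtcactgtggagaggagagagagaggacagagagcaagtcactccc
MAOA, chrX:43656049-43656348, plus strand: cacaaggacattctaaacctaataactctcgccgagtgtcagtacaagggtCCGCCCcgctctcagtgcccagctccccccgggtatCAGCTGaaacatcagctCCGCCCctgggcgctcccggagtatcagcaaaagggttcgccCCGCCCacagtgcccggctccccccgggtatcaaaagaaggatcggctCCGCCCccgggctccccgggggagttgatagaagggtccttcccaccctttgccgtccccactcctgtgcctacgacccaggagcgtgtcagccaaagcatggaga
MAOB, chrX:43882401-43882700, minus strand: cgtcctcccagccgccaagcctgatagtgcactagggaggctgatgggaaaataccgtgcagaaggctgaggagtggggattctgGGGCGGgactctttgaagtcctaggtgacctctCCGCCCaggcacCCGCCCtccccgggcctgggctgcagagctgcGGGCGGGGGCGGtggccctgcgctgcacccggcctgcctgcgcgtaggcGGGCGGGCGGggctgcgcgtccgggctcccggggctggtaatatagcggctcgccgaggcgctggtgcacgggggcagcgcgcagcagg
The upstream DDC promoter held 3 E-boxes, of which those at -50 and -48 from the start overlap each other, and no Sp1 box. The downstream DDC promoter held neither motif. MAOA held 4 Sp1 boxes and 1 E-box, the letters CAGCTG at -163, and MAOB held 7 Sp1 boxes, those at -39 and -35 overlapping, and no E-box. No Sp1 box overlapped an E-box in these promoters. Among all 35116 promoters of the table, 68.7% held an E-box and 45.0% a Sp1 box, so either motif is common.

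The BH4 genes differed among themselves in the same window. SPR (chr2:72887158-72887457, plus strand) held 5 Sp1 boxes and 1 E-box, QDPR (chr4:17512041-17512340, minus strand) held 1 of each, and PTS (chr11:112226178-112226477, plus strand) held neither. The E-box CAGATG, which NEUROD1 is known to bind together with an E protein, had 0 matches in the 7 promoters, and 14.7% of all promoters hold it. The TATA box TATAAA also had 0 matches, against 11.5% of all promoters. QDPR had the highest share of G and C (79%) and 42 CpG dinucleotides, and SPR and MAOB had 74% and 72%. The upstream DDC promoter stood at the other end with 44.3% and 3 CpG dinucleotides, where the medians over all promoters were 58.7% and 14. A match is a description of these letters only, and binding was not measured in these libraries.

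**Figure D1:**
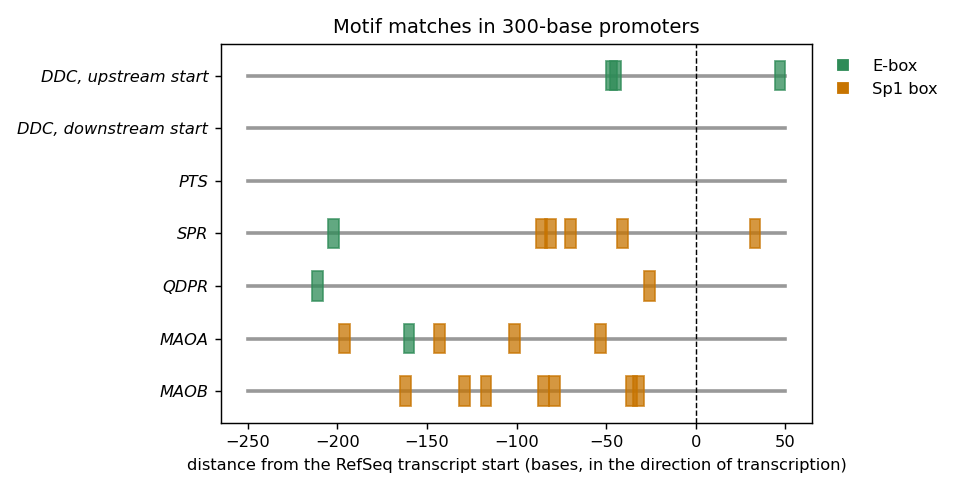
Matches to the E-box (CANNTG) and the Sp1 box (GGGCGG) on both strands of the 7 RefSeq promoters of 6 genes, drawn by distance in bases from the transcript start, which is the dashed line. Sp1 boxes crowd the MAOB (7), SPR (5) and MAOA (4) promoters, while the upstream DDC promoter has 3 E-boxes alone and the downstream DDC and PTS promoters have neither motif.

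The libraries carried the markers of a neuroendocrine SCLC line. All 6 neuroendocrine SCLC markers (NEUROD1, INSM1, CHGA, SYP, NCAM1, DLL3) were measured, and their summed level in FPKM (fragments scaled by transcript length and library size) lay between 1349 and 1370 in DMSO, 1305 and 1314 at 0.5 µM, and 1278 and 1305 at 1.5 µM. The sum covers unequal members: relative to DMSO, mean normalized counts at 0.5 and 1.5 µM differed by 35.3% and 39.0% for NEUROD1, 54.5% and 58.6% for NCAM1, -56.7% and -66.4% for DLL3, -24.7% and -26.3% for CHGA, -17.7% and -21.6% for SYP, and 0.344% and 0.496% for INSM1. HEXIM1, a widely used marker of BET inhibition, averaged 1125 ± 21.7 normalized counts in DMSO, 5487 ± 75.2 at 0.5 µM and 6976 ± 144 at 1.5 µM (SD, n = 3 each). In 3 libraries, namely 0.5 µM replicate 3 and 1.5 µM replicates 1 and 2, several genes stood apart: H19 had 1563, 2071 and 1476 normalized counts there and at most 82.8 in the other 6 libraries. COL3A1, a fibroblast collagen, had 1147, 1107 and 1022 normalized counts in the same libraries and at most 96.4 elsewhere. Summed over all 6 fibroblast markers, the level was 15.8 to 16.9 FPKM in DMSO, 5.56 to 14.2 FPKM at 0.5 µM and 5.08 to 11.8 FPKM at 1.5 µM, with DCN at 0 in every DMSO library. Most of the DMSO sum was COL1A2, which averaged 15.2 FPKM in DMSO, 5.38 at 0.5 µM and 4.88 at 1.5 µM. LUM went with COL3A1, at 366, 252 and 287 normalized counts in the 3 libraries and at most 44.6 elsewhere. DCN had 0.41, 0.41 and 0.40 FPKM there and at most 0.02 elsewhere. COL1A1 and PDGFRB reached at most 0.48 and 0.36 FPKM in any library. The 3 endothelial markers found summed to at most 0.07 FPKM in any library, with VWF at 0 throughout, and the 4 immune markers to at most 0.47 FPKM. The values of the 7 genes without those 3 libraries are given with each gene group.

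DDC, the aromatic amino acid decarboxylase, showed the widest gap of the 7 genes at 1.5 µM. Its DMSO libraries held 11216, 11329 and 11279.5 normalized counts, followed by 4712, 4904 and 4510.3 at 0.5 µM, and 3326, 3247 and 3202 at 1.5 µM. The 3 groups did not overlap, and the level was lower at each step of the dose. At 0.5 µM the mean was 4709 ± 197, against 11275 ± 56.7 in DMSO, a log2 difference of -1.26 ± 0.035 (SE). For 1.5 µM the mean was 3258 ± 63.1 (SD, n = 3), a log2 difference from DMSO of -1.79 ± 0.035, which is 3.46-fold lower. Between the doses the log2 difference was -0.53 ± 0.035. On the log2 scale, 70.4% of the drop seen at 1.5 µM was already there at 0.5 µM. DDC (ENSG00000132437.13, on chromosome 7) was among the deepest covered of the 7, with 3121 to 14570 reads per library. Without the 3 libraries with high H19 its log2 differences were -1.23 at 0.5 µM, -1.82 at 1.5 µM and -0.59 between the doses. In RNA of whole cultures, fewer cells of a type and less RNA per cell cannot be told apart.

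GCH1, PTS, SPR and QDPR, the genes of BH4 synthesis and recycling, were lower than in DMSO by smaller and unequal amounts. GCH1, the GTP cyclohydrolase that sets the pace of BH4 synthesis, had 8491, 8465 and 8419 normalized counts in DMSO, 7084, 7725 and 7025 at 0.5 µM, and 7729, 7972 and 7998 at 1.5 µM. Its lowest libraries were thus at the lower dose, and all 3 libraries at 1.5 µM stood above all 3 at 0.5 µM and below all 3 in DMSO. The log2 difference from DMSO was -0.22 ± 0.038 (SE) at 0.5 µM and -0.099 ± 0.038 at 1.5 µM, where it reached -0.16 on FPKM values and -0.15 with upper-quartile scaling. The log2 difference between the doses was 0.12 ± 0.038. At 0.5 µM the spread of GCH1 between replicates (5.34% of the mean) exceeded the counting error (1.24%), with replicate 2 above the other libraries of that dose.

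PTS, the 6-pyruvoyl-tetrahydropterin synthase, had 1777, 1903 and 1710.4 normalized counts in DMSO, 1541, 1611 and 1476 at 0.5 µM, and 1459.6, 1450.1 and 1593 at 1.5 µM. Both doses lay below every DMSO library and overlapped each other. The log2 difference from DMSO was -0.22 ± 0.057 (SE) at 0.5 µM and -0.26 ± 0.057 at 1.5 µM. Without the 3 libraries with high H19 they were -0.19 and -0.17. SPR, sepiapterin reductase, which completes BH4, had 1209.6, 1145 and 1188 normalized counts in DMSO, 707, 715 and 804 at 0.5 µM, and 701, 719.7 and 766 at 1.5 µM. SPR showed the largest gap of the BH4 genes, with about the same level at both doses. Its log2 differences from DMSO were -0.67 ± 0.062 and -0.70 ± 0.062 at 0.5 and 1.5 µM, and -0.73 and -0.62 without the 3 libraries.

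QDPR, quinoid dihydropteridine reductase, which recycles BH4, had 1205, 1131 and 1162 normalized counts in DMSO, 888, 755 and 910.4 at 0.5 µM, and 861, 863 and 845 at 1.5 µM. Here too the doses overlapped and neither reached the lowest DMSO library. The log2 difference from DMSO was -0.46 ± 0.069 (SE) at 0.5 µM and -0.44 ± 0.069 at 1.5 µM, and -0.51 and -0.46 without the 3 libraries. Between the doses PTS, SPR and QDPR had log2 differences of -0.040, -0.024 and 0.014, all within 1 SE. Without the 3 libraries PTS and SPR changed sign (0.016 and 0.11) and QDPR had 0.046, while QDPR changed sign without 0.5 µM replicate 2 (-0.070). GCH1 had -0.19 and -0.081 from DMSO without the 3 libraries, and 0.11 between the doses.

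The monoamine oxidase genes MAOA and MAOB were both more than 2-fold lower at each dose of JQ1. For MAOA at 0.5 µM the margin was narrow, its log2 difference lying between -1.06 and -0.987 with 1 library left out. MAOA, whose product prefers serotonin and noradrenaline, had 1616, 1610.4 and 1540.1 normalized counts in DMSO, 814, 739.5 and 788 at 0.5 µM, and 693, 697 and 690.4 at 1.5 µM. No groups overlapped, and the 3 libraries at 1.5 µM lay close together below those at 0.5 µM. Their spread at 1.5 µM (0.454% of the mean) was smaller than the counting error alone (3.75%). MAOA averaged 781 ± 37.9 normalized counts at 0.5 µM and 693 ± 3.15 at 1.5 µM, against 1589 ± 42.3 in DMSO (SD, n = 3 each). The log2 differences from DMSO were -1.03 ± 0.049 and -1.20 ± 0.049 (SE) at 0.5 and 1.5 µM, and -0.17 ± 0.049 between the doses.

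MAOB, whose product prefers phenylethylamine, had 515, 519 and 513 normalized counts in DMSO, 217, 235 and 193 at 0.5 µM, and 196, 214 and 213 at 1.5 µM. Both doses lay far below DMSO and overlapped each other. The log2 differences from DMSO were -1.26 ± 0.086 (SE) at 0.5 µM and -1.31 ± 0.086 at 1.5 µM, with -0.044 ± 0.086 between the doses. MAOB was the least covered of the 7 genes, with 171 to 209 reads per library at 0.5 µM, where counting error alone gives 7.19% of the mean and the replicates spread by 9.84%. Without the 3 libraries with high H19, MAOA had -1.03, -1.20 and -0.17 and MAOB -1.19, -1.27 and -0.080 for 0.5 µM, 1.5 µM and the step between them. MAOA and MAOB are neighbours on chromosome X, on opposite strands (GENCODE annotation of GRCh38).

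**Figure D2:**
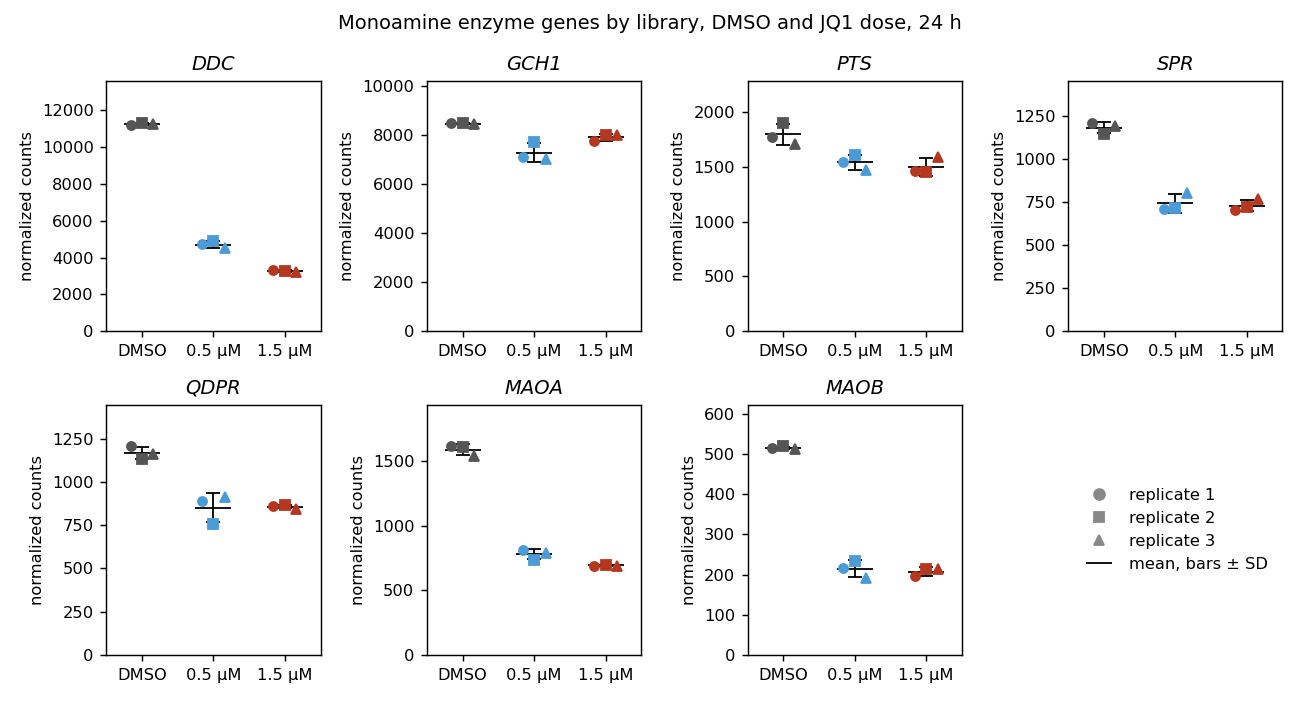
Normalized counts (vertical axes from 0) of the 7 genes in each of 9 libraries by group, with marker shapes for replicate numbers, a line at the mean and bars of ± SD (n = 3). All 7 genes lie below every DMSO library at both doses. DDC and MAOA are lower again at 1.5 µM, GCH1 is higher there than at 0.5 µM, and the other 4 genes overlap between the doses.

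At 0.5 µM limma (adjusted p under 0.05) called 34.7% of all 17514 tested genes lower than DMSO and 35.3% higher. The 7 genes are given no call. In all 7 the groups did not overlap, as in 36.4% of tested genes with 0.5 µM below DMSO. At 1.5 µM limma called 36.2% of tested genes lower and 36.9% higher. The groups of all 7 did not overlap there either, as in 41.0% of tested genes with 1.5 µM below DMSO. Between the doses limma called 8.09% of tested genes (1417) lower and 4.66% (816) higher. On FPKM values that split over all genes was 718 lower and 174 higher. Groups of the doses did not overlap with 1.5 µM below in 18.3% of tested genes and above in 15.4%. Of the 7, DDC and MAOA lay below in this way and GCH1 above. Because the 7 genes were chosen on these contrasts, nothing is read from their counts or from their median. The median log2 difference of the 7 was -0.67 at 0.5 µM and -0.70 at 1.5 µM, where the medians of all tested genes were -0.010 and -0.0030.

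In rank, the 7 genes spread widely over the tested genes. At 1.5 µM, 5.38% of tested genes had a lower log2 difference than DDC, 8.77% than MAOB and 9.92% than MAOA. For SPR the share was 17.9%, for QDPR 25.7% and for PTS 34.7%. GCH1, with 44.2%, sat near the middle of all genes. The share of the 1.5 µM log2 difference already reached at 0.5 µM was 85.8% for MAOA and 84.7% for PTS. It was 96.6% for SPR, 96.6% for MAOB and 103% for QDPR. GCH1 stood apart with 221%, its small difference from DMSO being more than 2 times as large at 0.5 µM as at 1.5 µM. DDC, with its 70.4%, was the one of the 7 with the largest remaining step.

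On the length-scaled FPKM values, which allow levels of different genes to be compared, DDC stood highest of the 7 in DMSO with 95.7 ± 0.366 FPKM (SD, n = 3). It was followed by GCH1 (47.7 FPKM), PTS (35.2), QDPR (14.2), SPR (13.1), MAOA (7.20) and MAOB (3.17), and no neighbours in that order overlapped. At 0.5 µM GCH1 (38.4 to 42.3 FPKM) and DDC (36.6 to 40.01 FPKM) overlapped at the top, as did QDPR and SPR in the middle. With 1.5 µM the order was GCH1 (42.6 FPKM), PTS (28.2), DDC (26.2), QDPR (9.57), SPR (7.80), MAOA (3.08) and MAOB (1.25), and again no neighbours overlapped. The level of DDC thus passed from the top of the 7 to below GCH1 and PTS.

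Ratios of FPKM levels within a library show the unequal differences. The level of DDC over that of GCH1 averaged 2.01 ± 0.0202 in DMSO, 0.965 ± 0.0259 at 0.5 µM and 0.615 ± 0.0211 at 1.5 µM (SD, n = 3 each). MAOA and MAOB summed to 10.4 ± 0.181 FPKM in DMSO, 4.66 ± 0.0493 at 0.5 µM and 4.32 ± 0.172 at 1.5 µM. Set against that sum, the level of DDC was 9.23 ± 0.145 times as high in DMSO, 8.22 ± 0.435 times at 0.5 µM and 6.06 ± 0.117 times at 1.5 µM, with no overlap between groups. MAOA stood at 2.27 ± 0.0238 times the level of MAOB in DMSO, 2.65 ± 0.373 times at 0.5 µM and 2.48 ± 0.28 times at 1.5 µM. For that ratio the 0.5 µM libraries (2.36 to 3.07) lay above the DMSO libraries (2.25 to 2.29), and the 1.5 µM libraries (2.25 to 2.79) overlapped both. GCH1 stood at 3.63 ± 0.118 times the level of SPR in DMSO, 4.98 ± 0.513 times at 0.5 µM and 5.46 ± 0.178 times at 1.5 µM.

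**Figure D3:**
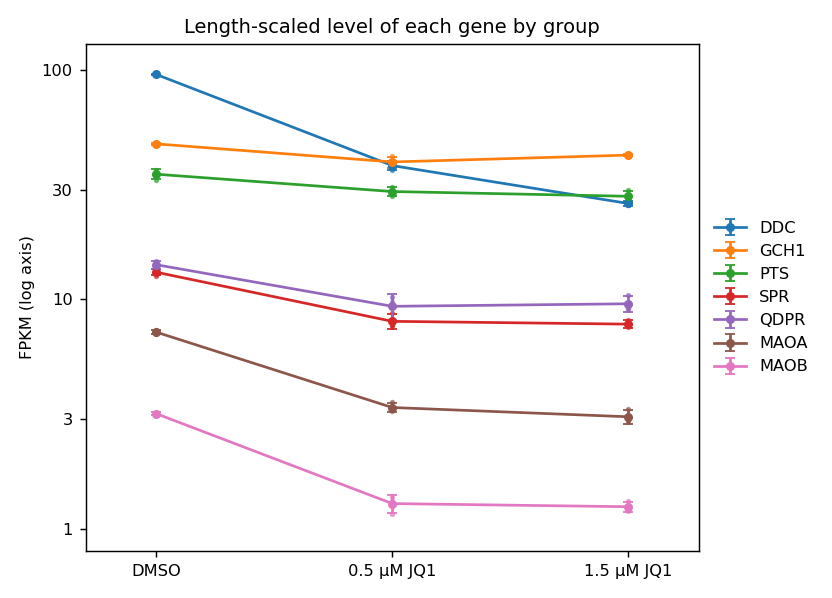
Mean FPKM (log axis) of the 7 genes in DMSO, 0.5 µM and 1.5 µM JQ1, with single libraries as small points and bars of ± SD (n = 3). The line of DDC starts above all others at 95.7 FPKM and ends at 26.2 FPKM, below GCH1 (42.6) and PTS (28.2), while MAOA and MAOB keep their places at the bottom.

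Other genes followed each of the 7 closely across the 9 libraries. Likeness was measured as the root mean square difference of log2 profiles, each set to 0 at its DMSO mean, over 12778 genes with a mean of at least 100 normalized counts. For DDC the nearest were TBKBP1 (0.038) and TCEA3 (0.044), and 34 genes lay within 0.1. MAOA was matched most closely by FSD1 (0.035) and FAM49A (0.036), with 99 genes within 0.1, and MAOB by RFX6 (0.082) and RASSF2 (0.085), with 8. QDPR lay nearest to VARS (0.025) and RPL14 (0.030), and SPR to MATN2 (0.046) and FKBP4 (0.051), with 276 and 162 genes within 0.1. The small differences of GCH1 and PTS left many genes alike, 669 and 867, led by AGAP6 and PUS7 for GCH1 and by ZNF721 and DHX15 for PTS. These are the lowest of many distances and carry no test.

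Of 55 other listed genes of monoamine synthesis, storage, uptake, cofactor supply and breakdown, 39 were tested. At 0.5 µM 26 fell, 6 rose and 7 did not pass (limma, adjusted p under 0.05 over all tested genes). Of all tested genes, 34.7% fell and 35.3% rose there. The median log2 difference of the 39 was -0.51, against -0.010 over all tested genes. At 1.5 µM 27 fell, 6 rose and 6 did not pass, where 36.2% of all tested genes fell and 36.9% rose. The median was -0.57, against -0.0030. By 2-fold or more, 10 fell at 0.5 µM and 15 at 1.5 µM, and 0 rose that far at either dose. Over all 17514 tested genes, 1765 fell and 845 rose by 2-fold or more at 0.5 µM, and 2066 fell and 1235 rose at 1.5 µM. The counts by role given below stand beside these same shares of all tested genes. The list was drawn up with earlier results of these data known, and both comparisons share the DMSO libraries. Between the doses 6 fell, among them PCBD1, SLC18B1, SLC29A4, ALDH1A1 and ALDH1B1, and SLC16A10 rose, and 32 did not pass. The call of PCBD1 was lost under 10 of 21 alternatives and that of SLC29A4 under 5. The other genes named here lost theirs under 1 each. The count of 7 calls is not firm, since it was 4 on FPKM values, 4 without 1.5 µM replicate 2, 4 without 1.5 µM replicate 3 and 0 without the 3 libraries with high H19 (11 at an unadjusted p under 0.05).

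All 5 tested genes of hydroxylation and later synthesis fell at both doses, and none of the 5 exceeded 217 normalized counts in any library. DBH, which turns dopamine into noradrenaline, had 74.0, 85.5 and 91.3 normalized counts in DMSO, 30.1, 34.04 and 18.03 at 0.5 µM, and 14.4, 25.7 and 19.5 at 1.5 µM. Its log2 differences were -1.62 ± 0.29 and -2.05 ± 0.29 (SE, limma adjusted p = 0.000564 and 8.76e-05). PNMT, which makes adrenaline, had -2.23 ± 0.59 and -2.66 ± 0.59, and AANAT, of melatonin synthesis, -2.56 ± 0.50 and -2.28 ± 0.50. TPH1, the peripheral tryptophan hydroxylase, averaged 138 ± 10.6 normalized counts at 0.5 µM and 152 ± 10.9 at 1.5 µM, against 197 ± 20.3 in DMSO (SD, n = 3 each). Its call at 1.5 µM (log2 difference -0.38 ± 0.11, limma adjusted p = 0.012) was lost on FPKM values (0.0037, adjusted p = 0.990) and without DMSO replicate 2 (-0.30, adjusted p = 0.0559), and its call at 0.5 µM (-0.51) was lost on FPKM values (-0.44, adjusted p = 0.145). TH, the tyrosine hydroxylase, was outside the normalized table and was listed at 0.14, 0.14 and 0.17 FPKM in DMSO, at 0, 0.06 and 0.05 at 0.5 µM and at 0 in all 3 libraries at 1.5 µM. The other tryptophan hydroxylase, TPH2, had 0.02 to 0.14 FPKM over all 9 libraries, and the FPKM level of DDC was far above those of TH and TPH2 in every library.

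Partners of the BH4 enzymes moved in both directions: of 7 tested, 4 fell and 2 rose at both doses. GCHFR, the feedback regulator that binds the GCH1 protein, rose: it had 503, 589 and 499 normalized counts at 0.5 µM and 521, 522 and 529 at 1.5 µM, against 346, 327 and 343 in DMSO. Every JQ1 library lay above every DMSO library, with log2 differences of 0.64 ± 0.074 and 0.63 ± 0.074 (SE, limma adjusted p = 1.93e-05 and 1.86e-05), opposite in sign to those of GCH1 itself. DNAJC12, a co-chaperone of the aromatic amino acid hydroxylases, fell to 1343 ± 157 and 1155 ± 21.4 normalized counts at 0.5 and 1.5 µM, against 2505 ± 116 in DMSO (SD, n = 3 each). PCBD1, which regenerates BH4 ahead of QDPR, fell by 0.36 ± 0.065 and 0.60 ± 0.065 on the log2 scale, and its relative PCBD2 by 0.49 ± 0.11 and 0.57 ± 0.11. CBR1 and AKR1B1 are carbonyl and aldo-keto reductases that can stand in for SPR. CBR1 fell by 0.30 ± 0.052 and 0.37 ± 0.052, while AKR1B1 rose by 0.15 ± 0.039 and 0.23 ± 0.039, its call at 0.5 µM being lost with upper-quartile scaling (0.098, limma adjusted p = 0.0702).

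DDC needs pyridoxal phosphate and the monoamine oxidases need FAD. Of the 5 genes listed for these cofactors, 3 fell at both doses, among them PLPBP (listed in the files under its older symbol PROSC), which binds pyridoxal phosphate, and FLAD1, the FAD synthase. PLPBP fell by 0.45 ± 0.035 and 0.49 ± 0.035 (SE) on the log2 scale, and FLAD1 by 0.30 ± 0.029 and 0.34 ± 0.029. PDXK and RFK, which phosphorylate vitamin B6 forms and riboflavin, did not pass at either dose, but that depended on the setting. PDXK passed at both doses on FPKM values (0.18 and 0.24, limma adjusted p = 0.00360 and 0.000551), and at 1.5 µM with DESeq2 (adjusted p = 0.0435) and in a fit to the 6 libraries compared (limma adjusted p = 8.04e-06). RFK (0.072 and 0.090) passed at 1.5 µM without 0.5 µM replicate 2 and in the fit to 6 libraries (limma adjusted p = 0.0218 and 0.0255). PDXK moved with 0.5 µM replicate 2, which had 7485 normalized counts beside 10263 and 10453 in the other libraries of that dose. Without that library its log2 difference was 0.21 at both doses (limma adjusted p = 1.07e-05 and 2.92e-06).

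Among transporters, the vesicular monoamine carriers fell and the dopamine reuptake carrier rose. SLC18A1, the vesicular carrier VMAT1 of endocrine cells, had 341, 323 and 314 normalized counts in DMSO, 20.7, 29.3 and 20.3 at 0.5 µM, and 11.3, 18.6 and 13.3 at 1.5 µM. It had the largest drop of the 39 pathway genes, with log2 differences of -3.76 ± 0.22 and -4.43 ± 0.22 (SE, limma adjusted p = 1.39e-07 and 2.71e-08). SLC18A2, the neuronal carrier VMAT2, fell to 300.2 ± 53.1 and 335 ± 22.0 normalized counts at 0.5 and 1.5 µM, against 563 ± 31.0 in DMSO (SD, n = 3 each). SLC18B1, a vesicular polyamine carrier, fell by 0.82 ± 0.064 and 1.18 ± 0.064 on the log2 scale. SLC6A3, the dopamine transporter, rose by 0.42 ± 0.065 and 0.41 ± 0.065, to 2124 ± 191 and 2110.2 ± 79.3 normalized counts at 0.5 and 1.5 µM, against 1588 ± 70.1 in DMSO. SLC29A4, a plasma membrane monoamine carrier, did not pass at 0.5 µM (-0.027, limma adjusted p = 0.464) and fell by 0.18 ± 0.032 at 1.5 µM (limma adjusted p = 0.000489). The uptake carriers SLC6A2, SLC22A2 and SLC22A3 were listed at 0 FPKM in all 9 libraries.

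Breakdown genes beside the monoamine oxidases mostly fell: of 12 tested, 8 fell and 2 rose at both doses. The aldehydes that the oxidases produce are cleared by aldehyde dehydrogenases, and these split. ALDH1A1 fell to 4073 ± 366 and 3208 ± 77.1 normalized counts at 0.5 and 1.5 µM, against 9998 ± 83.5 in DMSO (SD, n = 3 each), and ALDH1B1 fell by 0.93 ± 0.034 and 1.15 ± 0.034 on the log2 scale. ALDH2, the mitochondrial enzyme, rose by 0.52 ± 0.037 and 0.57 ± 0.037, and ALDH3A2, a microsomal one, by 0.83 ± 0.045 and 0.98 ± 0.045. The sulfotransferase SULT1A1 fell by 1.27 ± 0.090 and 1.38 ± 0.090. Its relative SULT1A3 did not pass (0.36 ± 0.27 and 0.16 ± 0.27), although it did at 0.5 µM without 0.5 µM replicate 1 (0.76, limma adjusted p = 0.000806), and its reads are uncertain because a near-identical copy exists. The copper amine oxidases AOC1, AOC2 and AOC3 fell at both doses, and their DMSO libraries held 105 to 256 normalized counts. The call of AOC2 at 1.5 µM was lost without the 3 libraries with high H19 (-0.46, limma adjusted p = 0.0554).

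Precursor supply showed a split as well. SLC7A5 and SLC3A2, the light and heavy chain of the LAT1 carrier that imports tyrosine, tryptophan and L-DOPA, fell by 1.34 ± 0.077 and 1.32 ± 0.077 (SE) and by 1.10 ± 0.035 and 1.15 ± 0.035 on the log2 scale. SLC7A5 averaged 10303.5 ± 1356 and 10406 ± 170 normalized counts at 0.5 and 1.5 µM, against 25942 ± 622 in DMSO (SD, n = 3 each). SLC16A10, the aromatic amino acid carrier TAT1, rose to 1738 ± 136 and 2106 ± 24.9 normalized counts, against 1066 ± 27.5 in DMSO. AFMID, of tryptophan breakdown along the kynurenine route, fell by 0.68 ± 0.088 and 0.88 ± 0.088. The kynurenine genes IDO1, TDO2, KMO and KYNU stayed at or under 0.23 FPKM in every library, and IDO2 was listed at 0.

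**Figure D4:**
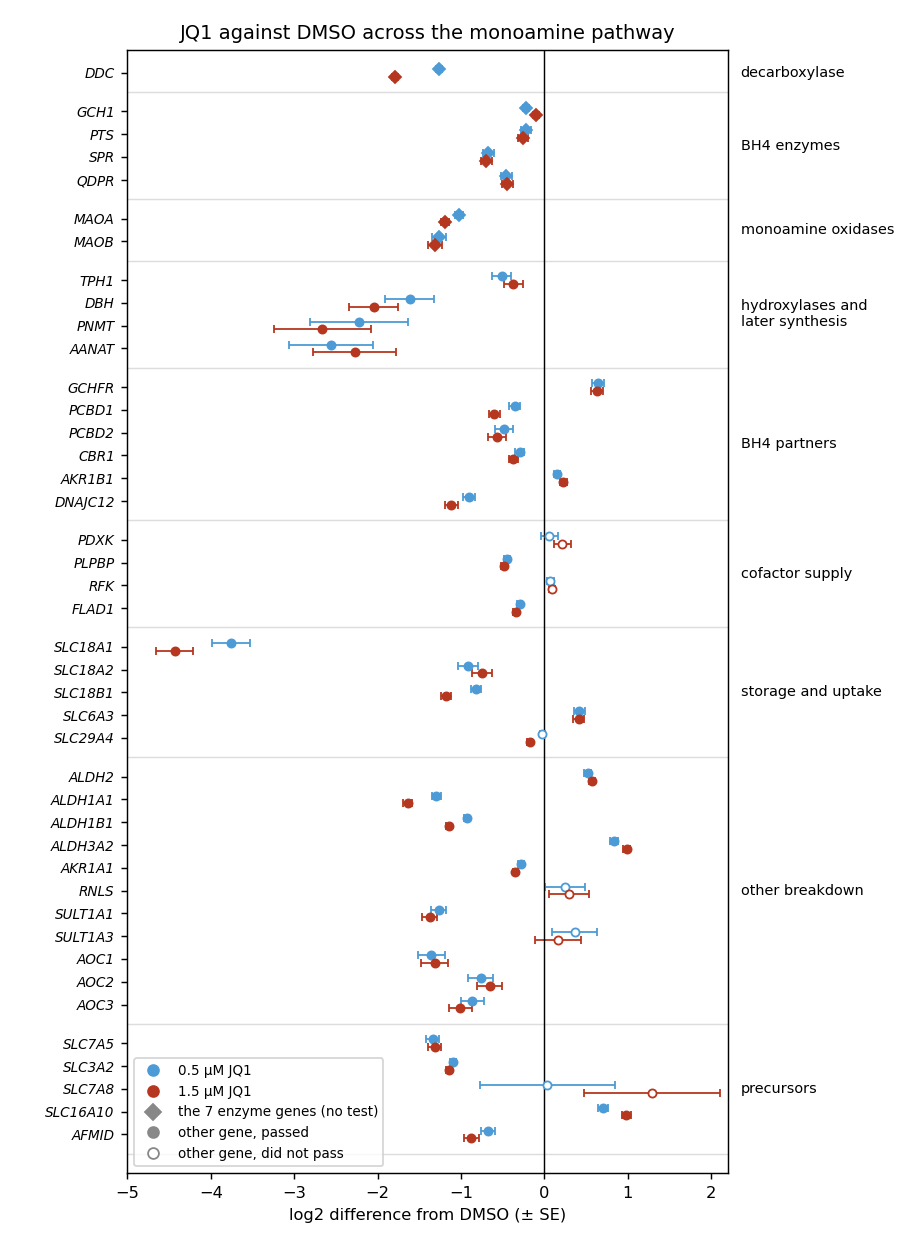
Log2 difference from DMSO (± SE, horizontal axis) of the 7 genes (diamonds, with no test) and other tested genes of the pathway (circles, filled where limma called them), grouped by role, with 0.5 µM above 1.5 µM in each row. Most points lie left of 0, with SLC18A1 farthest left at -4.43. GCHFR, ALDH2, ALDH3A2, SLC6A3, AKR1B1 and SLC16A10 lie to the right and were called at both doses. PDXK, RFK, RNLS, SULT1A3 and SLC7A8 also lie to the right at both doses and were not called.

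Genes beside or across the 7 did not share one direction. FIGNL1, which overlaps DDC on the same strand (GENCODE annotation of GRCh38), averaged 3612 normalized counts at 0.5 µM and 3616 at 1.5 µM, against 2890 in DMSO, the opposite direction to DDC. Neighbours of SPR and QDPR went different ways: EXOC6B had log2 differences of 0.72 and 0.98 at 0.5 and 1.5 µM, and LDB2 had -2.34 and -2.48. WDHD1, beside GCH1, had 0.023 and 0.076. PTS overlaps PLET1 on the other strand and GCH1 overlaps small RNA genes and a pseudogene, and none of these is in the normalized table. SPR, QDPR, MAOA and MAOB overlap no other gene in that annotation. Whether reads were assigned by strand is unknown from the labels and notes, so reads of DDC, PTS and GCH1 and of genes on their other strand may be mixed.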

How the data were processed

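RNA of 9 libraries was profiled in 3 groups of 3 (DMSO, 0.5 µM and 1.5 µM JQ1, each for 24 h). Reads were handled by the authors with cutadapt, STAR and RSEM on hg19, per the submitters' processing notes, with versions not given in the sources used here. The authors deposited a table of normalized counts (a signal scaled by library) for 17518 genes and a table of FPKM values for 57820 genes, rounded to 2 decimals. From the low values of the deposited signal, whole reads were recovered (100% of values within 0.001 of a whole number).

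Log2(normalized count + 1) was fitted with limma 3.58.1 in R 4.3.3 over all 9 libraries, two-sided, with Benjamini-Hochberg adjustment over the 17514 genes that had at least 10 normalized counts in at least 3 libraries (4 were left out). Folds are on that scale and understate changes of low genes. A call means adjusted p under 0.05. The edgeR 4.0.16 quasi-likelihood test on the recovered reads called 12240 genes at 0.5 µM, 12897 at 1.5 µM and 2283 between the doses.

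The 7 genes and the lists were chosen with earlier results of these data known. Named beyond them are the listed pathway genes and the 2 nearest profiles of each of the 7. Alternatives were pseudocounts of 0.1 and 5, no filter, a minimum of 50, FPKM values (log2 of FPKM + 0.1, genes reaching 0.5 in 3 libraries), scaling by TMM or upper quartile, edgeR, DESeq2 1.42.0, a replicate block, each library left out, the 3 libraries with high H19 and SLC2A3 left out, and a fit to the 6 libraries compared. Scripts were tested on simulated data. Promoters came from RefSeq (GRCh38.p14), whose build differs from the files' build, and were joined by symbol. A few listed genes are counted in the lists and are not reported here by name.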

Additional observations from a re-analysis of the deposited data

How the results depend on the processing

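The 7 genes kept the sign of both differences from DMSO under all 21 alternatives. Of their 441 recomputed values, which include the step between the doses, 433 moved by less than the replicate spread and 8 by more. For that step PTS, SPR, QDPR and MAOB changed sign under some alternatives, MAOB reaching 0.022 with 1 library left out. Counts called against DMSO stayed within 1.5 times: 10886 to 12844 for all genes at 0.5 µM (12255 as reported) and 10632 to 14008 at 1.5 µM (12806), and 29 to 33 and 30 to 36 for the pathway genes (32 and 33). The step between the doses was less firm. Of all genes, 2233 were called there, 892 on FPKM values, 1155 in a fit to the 6 libraries compared, 90 without the 3 libraries with high H19 and SLC2A3 (2677 at an unadjusted p under 0.05), and 995 to 3217 with 1 library left out. The count was 1483 without DMSO replicate 2, and 1320, 995 and 1024 without 1.5 µM replicates 1, 2 and 3. Of the pathway genes, 7 were called between the doses, 4 on FPKM values, 0 without the 3 libraries (11 at an unadjusted p under 0.05 by limma) and 4 to 9 with 1 library left out. Leaving out all 3 libraries keeps 1 library at 1.5 µM, assumed to vary like the others. The causes were not tested.

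For pathway genes, the step between the doses was followed gene by gene only for the 7 called there. Of 1771 recomputed values, 1715 kept sign and call, 28 lost and 14 gained the call, and 14 changed sign. At 0.5 µM these were PDXK (-0.029 without the 3 libraries, -0.029 to 0.21 with 1 library left out), RFK (-0.11 on FPKM values), RNLS (-0.42 on FPKM values, -0.037 to 0.49 with 1 left out) and SLC7A8 (-0.013 with upper-quartile scaling, -0.70 without the 3 libraries, -0.70 to 0.65 with 1 left out). At 1.5 µM they were TPH1 (0.0037) and RNLS (-0.13) on FPKM values and SLC7A8 (-0.22) without the 3 libraries.

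Whether replicate numbers pair the libraries is not stated in the labels and was not settled here. Deviations of the 9 same-numbered pairs correlated between -0.39 and 0.13, 2 over 0.1, and a library correlated best with its own number in 7 of 18 cases. With a replicate block, 12329, 12852 and 2030 genes and 32, 34 and 7 pathway genes were called at 0.5 µM, at 1.5 µM and between the doses, RFK passing at 1.5 µM (limma adjusted p = 0.0335). Depth limits MAOB most of the 7 genes. Other pathway genes had fewer reads than MAOB in every JQ1 library. Among them were AANAT, PNMT, SLC7A8, SLC18A1, DBH, AOC1, AOC2, AOC3, TPH1 and RNLS. AANAT had 2 to 11 reads at 0.5 µM.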
